A study of Homo sapiens with 4 samples.

Results

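The regulators of G-protein signalling (RGS) examined here are 10 genes chosen by symbol, RGS2, RGS3, RGS4, RGS5, RGS10, RGS12, RGS14, RGS16, RGS19 and RGS20, and all 10 were found among the 24424 gene symbols of the series. The choice was made with earlier results of these data known. They were measured by RNA sequencing in BEAS-2B cells, a long-established bronchial epithelial line of human origin. One library came from cells with neither peptide nor LPS (Control) and one from cells with LPS, a cell wall component of gram-negative bacteria, for 2 hr (LPS). The remaining conditions had a peptide for 24 hr before the same 2 hr of LPS, either the wild-type peptide (WT PDZ+LPS) or its mutant (mut PDZ+LPS). WT PDZ is a cell-permeable peptide from the first PDZ domain of the tight junction protein ZO-1, and mut PDZ is the same peptide with a glycine pair replaced by alanines. Each condition had 1 library and no library had a peptide without LPS, so an effect of either peptide alone was not analysed here. With 1 library for each condition no test between conditions was possible, and every interval below is a 95% exact binomial (Clopper-Pearson) or exact Poisson interval that covers counting error only.

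G-protein coupled receptors act by loading the G-alpha subunit with GTP, and RGS proteins speed its return to the GDP form, which ends the signal. The R4 subfamily (RGS2, RGS3, RGS4, RGS5 and RGS16) consists mainly of small proteins that act on the Gi and Gq classes, the R12 subfamily (RGS10, RGS12 and RGS14) acts on Gi proteins, and the RZ subfamily (RGS19 and RGS20) is best known for its action on Gz and Gi. RGS12 and the long form of RGS3 carry a PDZ domain of their own, and in the airway epithelium the receptors under RGS control include those for bradykinin, prostaglandins and chemokines.

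Depth ranged from 19682929 counts in mut PDZ+LPS to 25155647 in LPS. Counts were divided by geometric size factors between 0.851 and 1.15, and the results are named normalized counts. The LPS label was checked with 5 genes of the LPS response, which were higher in LPS than in Control on the log2 scale by 2.98 for NFKBIA, 4.37 for TNFAIP3, 4.84 for IL6, 4.84 for CXCL8 and 8.34 for CCL20. The cell line was checked with 7 epithelial markers, all of which passed 16 normalized counts in every comparison. They ranged from EPCAM (34.8 to 49.5) to KRT7 (38725 to 51663). Of 6 leukocyte markers PTPRC was at 0 in the 4 libraries, and LYZ, ITGAM and CD3E had at most 11.3 normalized counts. CD14 and CD68 were detected at 305 to 523, above the epithelial markers EPCAM and KRT19 (87.9 to 188). The 3 endothelial markers summed to 5.87 to 14.1 normalized counts. The mesenchymal genes VIM and FN1 were also abundant, with at least 20794 normalized counts in each library, while CDH2, also on that list, had 68.1 to 99.2.

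The upstream windows of 4 members are shown because these genes had the largest absolute log2 fold changes in LPS/Control among the members that passed the expression rule given below. Each window runs from 250 bases before to 50 after a RefSeq transcription start (GRCh38.p14, not the build of the counts), 5′ to 3′ on the gene's strand. Capitals mark every match, on either strand, to the cAMP response element TGACGTCA, its core TGACG (which lies inside the full element), the AP-1 site TGACTCA, the TATA box TATAAA, the GC box GGGCGG or the NF-kB motif. RGS16 is at chr1:182604340-182604639 on the minus strand, RGS2 at chr1:192808789-192809088, RGS14 at chr5:177357674-177357973 and RGS3 at chr9:113444480-113444779, these 3 on the plus strand.
RGS16: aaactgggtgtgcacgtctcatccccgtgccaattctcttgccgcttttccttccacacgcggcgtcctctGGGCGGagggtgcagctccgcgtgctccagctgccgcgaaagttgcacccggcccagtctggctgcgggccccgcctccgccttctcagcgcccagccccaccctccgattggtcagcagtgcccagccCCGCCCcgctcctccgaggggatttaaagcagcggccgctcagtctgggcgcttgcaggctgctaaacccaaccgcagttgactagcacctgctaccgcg
RGS2: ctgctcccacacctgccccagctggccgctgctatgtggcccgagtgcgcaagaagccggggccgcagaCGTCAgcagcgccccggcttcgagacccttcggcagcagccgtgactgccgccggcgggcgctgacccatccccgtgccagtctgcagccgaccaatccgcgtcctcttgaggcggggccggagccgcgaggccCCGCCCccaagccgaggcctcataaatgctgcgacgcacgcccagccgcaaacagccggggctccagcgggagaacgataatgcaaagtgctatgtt
RGS3: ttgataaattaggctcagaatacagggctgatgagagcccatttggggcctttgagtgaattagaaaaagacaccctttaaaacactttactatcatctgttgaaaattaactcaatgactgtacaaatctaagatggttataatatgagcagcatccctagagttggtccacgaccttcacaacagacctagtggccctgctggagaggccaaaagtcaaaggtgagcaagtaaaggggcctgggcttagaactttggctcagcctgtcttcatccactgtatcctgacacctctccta
RGS14: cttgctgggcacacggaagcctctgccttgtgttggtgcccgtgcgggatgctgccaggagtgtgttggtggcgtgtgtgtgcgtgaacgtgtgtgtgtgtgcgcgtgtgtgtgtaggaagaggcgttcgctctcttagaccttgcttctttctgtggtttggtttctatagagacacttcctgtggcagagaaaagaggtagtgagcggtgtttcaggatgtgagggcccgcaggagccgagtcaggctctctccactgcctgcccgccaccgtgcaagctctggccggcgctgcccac

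RGS16 held 2 GC boxes, RGS2 held 1 core of the cAMP response element and 1 GC box, and the windows of RGS3 and RGS14 held none of the 6 motifs. RGS16, RGS2 and RGS14 had 1 listed start each, and RGS3 had 5, of which the one nearest to the start of its longest transcript is shown. Over the 23 windows of the 9 members whose windows were read, 1 held the NF-kB motif, 5 the core, 2 a TATA box and 11 a GC box, and 0 held the full cAMP response element or AP-1 site. The 1 NF-kB match was in 1 of the 5 windows of RGS12. Over all 35116 windows of this length, 11.3% held the NF-kB motif, 24.6% the core, 1.85% the full cAMP response element, 4.95% the AP-1 site, 11.5% the TATA box and 45.0% the GC box. These matches describe the letters of the windows, and no match says only that the letters are not there.

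GENCODE 29 places RGS2, RGS4, RGS5 and RGS16 on chromosome 1, RGS12 on chromosome 4, RGS14 on 5, RGS20 on 8, RGS3 on 9, RGS10 on 10 and RGS19 on 20. Levels between genes were compared per kilobase of the longest protein-coding transcript. In Control, RGS10 was highest with 484 normalized counts per kb (442 to 530), followed by RGS19 with 157 and RGS12 with 62.8, each with an interval apart from the next gene in the order. RGS3 (48.2 per kb), RGS20 (48.0) and RGS14 (42.2) came next with intervals that overlapped from one to the next. RGS2 (16.1 per kb) and RGS5 (15.4) overlapped as well, and RGS4 (1.84) and RGS16 (0.72) stood last. RGS10 and RGS19 were first and second in all 4 libraries. RGS16 was last in Control, ninth with LPS alone and after the wild-type peptide, and seventh after the mutant, where its 11.6 per kb overlapped with the 9.22 of RGS5.

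**Figure D1:**
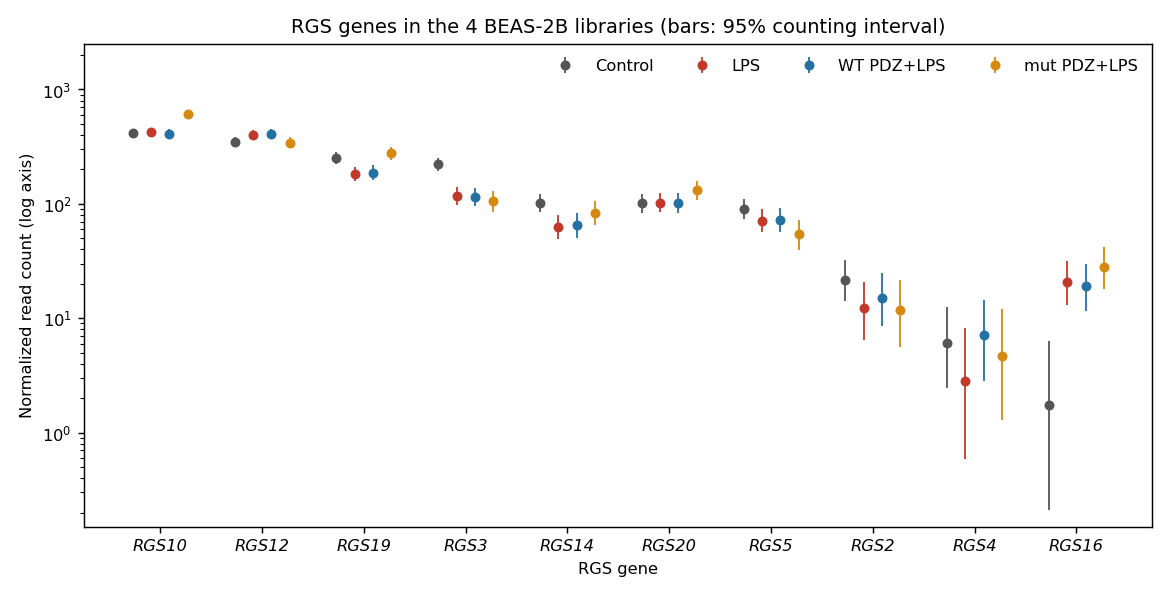
Normalized read count (log axis) of the 10 RGS genes, with 1 point for each library (grey for Control, red for LPS, blue for WT PDZ+LPS, orange for mut PDZ+LPS) and bars for the 95% exact Poisson interval. Points are compared within a gene, since counts are not divided by length here; RGS16 lies at 1.74 in Control and between 19.2 and 28.2 in the 3 LPS-treated libraries, while RGS3 lies at 221 in Control and between 106 and 117 in the others.

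The first comparison, LPS/Control, addresses how the RGS genes stood after 2 hr of LPS. RGS16 was the 1 member called higher and 0 members were called lower, a call being a difference of at least 2-fold with at least 16 normalized counts in 1 of the 2 libraries. The other 8 of the 9 members that passed this expression rule differed by less than 2-fold. Over the 13277 genes tested, 3.46% were called higher, 1.41% lower and 4.87% in either direction. The members were chosen with earlier results of these data known, so their share describes this list only. The median log2 fold change of the 9 members was -0.34, against -0.0023 over all genes tested. It is the value of RGS5, whose level is uncertain for the reason given below. RGS16 passed the rule through its LPS value alone and RGS2 through its Control value alone, so this median is a description of the genes that passed. Less RNA per cell and fewer cells with a transcript cannot be told apart in bulk RNA.

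RGS16, an R4 member that acts on Gi and Gq subunits, had 2 counts in Control, 22 with LPS alone, 19 after the wild-type peptide and 24 with the mutant, or 1.74, 20.7, 19.2 and 28.2 normalized counts. All 3 LPS-treated libraries lay above Control, and their intervals did not overlap with that of Control. LPS/Control was 11.9-fold, with a counting interval from 2.92-fold to 104-fold set by the 2 counts of Control. On the log2 scale with a pseudocount of 1, used for all log2 values here, the difference was 2.98, and 1.93 with a pseudocount of 5.

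RGS3, an R4 member with long and short forms, had 221 normalized counts in Control, 117 with LPS alone, 115 after the wild-type peptide and 106 after the mutant (254, 124, 114 and 90 counts). Control was the highest library and its interval stood apart from those of the other 3, which overlapped. LPS/Control was -0.92 on the log2 scale (-1.24 to -0.61), 1.90-fold lower, which misses the 2-fold limit. The interval also includes -1, the log2 limit of a 2-fold difference. Set against Control, WT PDZ+LPS was at -0.94 and mut PDZ+LPS at -1.06, the latter past the 2-fold limit only before the length and GC correction (-0.99 after it); these comparisons share the Control library.

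The other R4 members had few counts or a neighbour on the opposite strand. RGS2, which is selective for Gq, had 21.8 normalized counts in Control, 12.2 with LPS alone, 15.1 after the wild-type peptide and 11.8 after the mutant, and its LPS/Control log2 fold change of -0.78 had an interval from -1.92 to 0.19. RGS5, known from pericytes and smooth muscle, had 90.5, 71.5, 72.7 and 54.0 normalized counts in the same order, with LPS/Control at -0.34 (-0.79 to 0.10). Exons of RGS5 overlap those of NUF2, a kinetochore gene on the opposite strand with 1121 to 1450 normalized counts, and the sources used here do not give whether the counting used the strand, so the level of RGS5 is uncertain. RGS4 had 7, 3, 7 and 4 counts and passed the expression rule in 0 of the 6 comparisons.

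In the R12 subfamily the LPS/Control interval of RGS14 lay below those of RGS12 and RGS10, which overlapped. RGS12, a large protein with PDZ, Ras-binding and GoLoco domains, had 346 normalized counts in Control, 401 with LPS alone, 407 after the wild-type peptide and 343 after the mutant (398, 426, 403 and 292 counts). As measured, LPS and WT PDZ+LPS were the higher pair, and Control and mut PDZ+LPS the lower. With the length and GC trends described below removed, the mutant library stood at 0.14 above Control on the log2 scale and at -0.031 from LPS. LPS/Control of RGS12 was 0.21 on the log2 scale (0.0097 to 0.41), 1.16-fold. That interval included 0 with total-count scaling (0.079, -0.12 to 0.28) and with upper-quartile scaling (0.15, -0.052 to 0.35). RGS14, which also has Ras-binding and GoLoco domains, had 102, 63.0, 65.6 and 83.4 normalized counts in the same order, with Control highest and LPS/Control at -0.68 (-1.15 to -0.25). RGS10, a short protein made mostly of the RGS domain, had 413, 421, 406 and 606 normalized counts, and its LPS/Control was 0.031 (-0.16 to 0.22).

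In the RZ subfamily, RGS19, which was found through its binding to a Gi subunit, had 251 normalized counts in Control, 183 with LPS alone, 188 after the wild-type peptide and 278 after the mutant. As measured, LPS and WT PDZ+LPS were the low pair, but the value after the mutant ran with the length trend described below. LPS/Control of RGS19 was -0.45 (-0.72 to -0.18). RGS20, a regulator of Gz, had 101, 103, 102 and 132 normalized counts, with LPS/Control at 0.022 (-0.37 to 0.41).

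The counting interval of LPS/Control lay above 0 for RGS16 and, with geometric and TMM scaling only, for RGS12, below 0 for RGS3, RGS14 and RGS19, and included 0 for the other 5 members. Over all genes tested the interval excluded 0 in 47.1%, 25.9% above and 21.3% below. An interval that excludes 0 compares 2 libraries, and the spread between cultures was not measured.

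**Figure D2:**
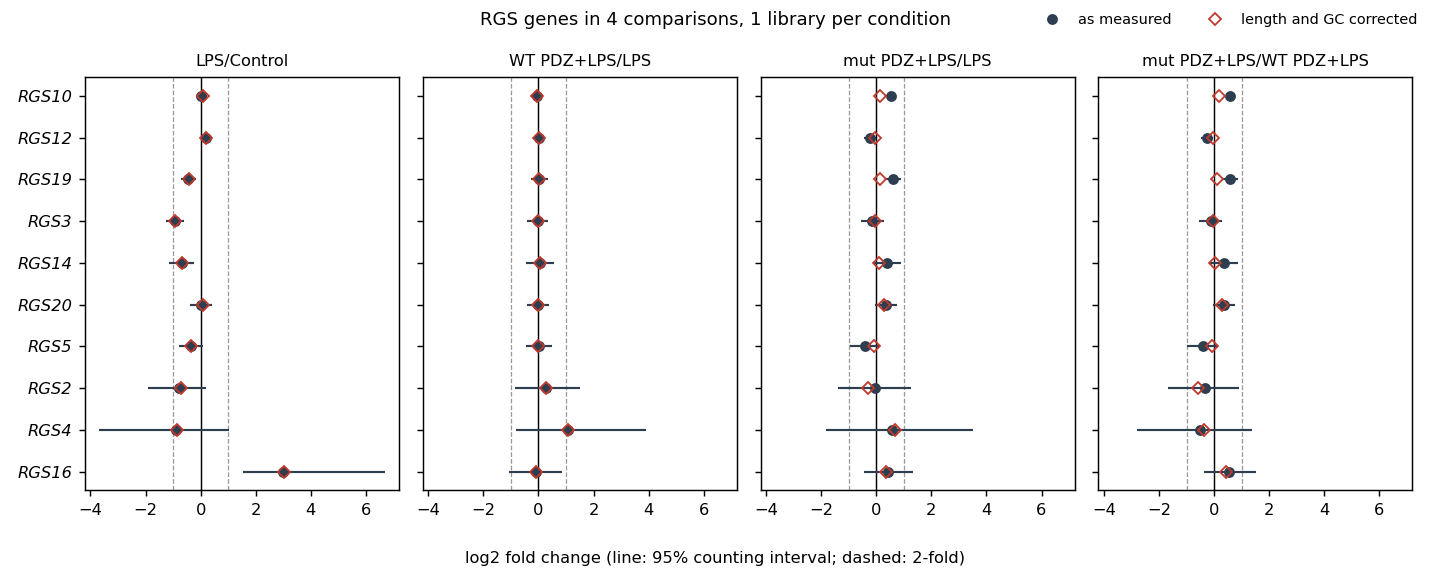
log2 fold change of the 10 RGS genes in 4 comparisons, with filled points for the measured value, lines for the 95% counting interval and open red diamonds for the value once the trends over transcript length and GC content were removed; dashed lines mark 2-fold. RGS16 lies at 2.98 and RGS3 at -0.92 in LPS/Control, every interval of WT PDZ+LPS/LPS includes 0, and for mut PDZ+LPS/LPS the diamonds of RGS10 and RGS19 lie at 0.15 and 0.14 against measured values of 0.52 and 0.60.

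WT PDZ+LPS/LPS addresses whether the peptide before LPS changed the RGS genes from their level with LPS alone. No member stood apart between these 2 libraries beyond counting error, as 0 of the 8 members that passed the expression rule were called in either direction and the interval of all 10 members included 0. Over the 13236 genes tested 1.37% were called in either direction, and the interval excluded 0 in 22.3%. RGS12 was at 0.022 (-0.18 to 0.22), so that a difference of more than 1.17-fold higher or 1.13-fold lower lies outside its counting interval.

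Among the members with more counts, RGS10 was at -0.054 (-0.25 to 0.14) and RGS19 at 0.034 (-0.26 to 0.33). RGS3 was at -0.019 (-0.40 to 0.36), and RGS20 at -0.0076 (-0.41 to 0.40). These 4 intervals do not reach 2-fold in either direction. For RGS16 the value was -0.10 (-1.08 to 0.84), whose lower bound passes the 2-fold limit, so at this depth a 2-fold lower level of RGS16 cannot be told from no difference. RGS14 was at 0.058 (-0.46 to 0.57) and RGS5 at 0.024 (-0.46 to 0.51), and the median of the 8 members was 0.0073, against 0.0076 over all genes tested. RGS2 (1.24-fold, 0.55 to 2.83) and RGS4 (2.50-fold, 0.57 to 15.0) did not pass the expression rule here, with 15 against 13 and 7 against 3 counts.

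mut PDZ+LPS/LPS compares the mutant peptide with LPS alone. Again 0 of 8 members were called in either direction, against 3.95% of the 13378 genes tested. RGS19 (0.60, 0.32 to 0.88) and RGS10 (0.52, 0.34 to 0.71) were higher with intervals above 0, by 1.52-fold and 1.44-fold. RGS12 was lower with an interval below 0, at -0.22 (-0.44 to -0.0058), 1.17-fold. That interval of RGS12 included 0 with total-count (upper bound 0.027) and upper-quartile scaling (0.059). Over all genes tested the interval excluded 0 in 62.5%, lying above 0 in 28.8% and below 0 in 33.7%.

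The values of all genes in mut PDZ+LPS ran with transcript length, and so did those of most RGS members. Across 12107 genes Spearman's rho between log2 fold change and length was -0.60 for mut PDZ+LPS/LPS, against 0.075 for WT PDZ+LPS/LPS and 0.16 for LPS/Control; genes are not independent replicates. For mut PDZ+LPS/LPS the shortest decile of genes had a median of 0.40 and the longest decile one of -0.47. RGS10 (852 nt) and RGS19 (1593 nt) are the shortest of the members apart from RGS2, while RGS12 (5512 nt) and RGS5 (5862 nt) are the longest. After removal of the trends over length and GC content, RGS10 was at 0.15, RGS19 at 0.14, RGS12 at -0.031, RGS14 at 0.090 (0.40 measured) and RGS5 at -0.094 (-0.40 measured). RGS20 kept 0.27 of 0.36 and RGS16 0.34 of 0.43, with measured intervals that included 0. RGS3 was at -0.14 (-0.55 to 0.26), or -0.046 after the correction. RGS2 (1354 nt, 10 against 13 counts) was at -0.053 (-1.41 to 1.25) and at -0.30 after the correction. Its interval is too wide to tell whether it followed the trend. RGS2 and RGS4 (4 against 3 counts) did not pass the expression rule in this comparison. In LPS/Control the same correction left RGS16 at 3.02, RGS3 at -0.94, RGS14 at -0.67 and RGS19 at -0.41.

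**Figure D3:**
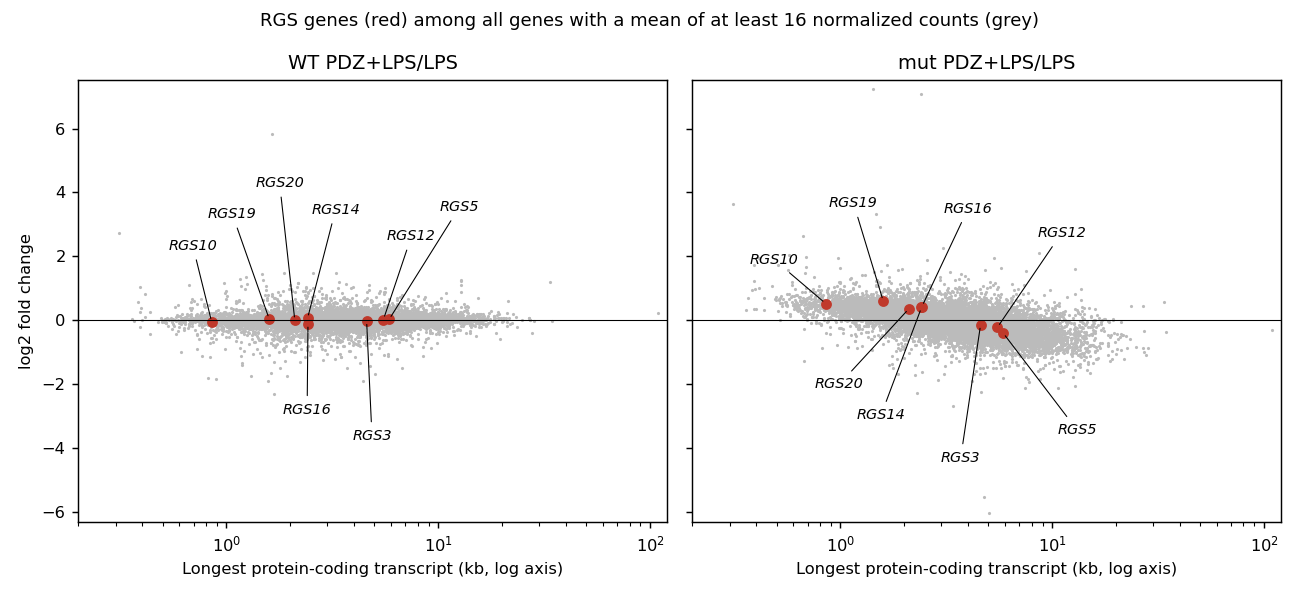
log2 fold change (y axis) against the length of the longest protein-coding transcript in kb (log x axis) for genes that averaged 16 or more normalized counts, with WT PDZ+LPS/LPS on the left, the mutant peptide library against LPS on the right; red points are the RGS genes among them and grey points all others. On the left the RGS genes lie between -0.10 and 0.058 at every length, and on the right they go from 0.52 for RGS10 to -0.40 for RGS5 along the slope of the grey points.

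mut PDZ+LPS/WT PDZ+LPS sets the mutant against the wild-type peptide. In either direction 0 of 8 members were called, against 4.26% of 13372 genes tested. RGS10 was higher by 0.58 on the log2 scale (0.39 to 0.77) and RGS19 by 0.57 (0.29 to 0.85), and RGS12 was at -0.25 (-0.47 to -0.025), 1.19-fold lower with the mutant peptide. The upper bound for RGS12 was 0.0085 with total-count and 0.040 with upper-quartile scaling. Intervals excluded 0 in 63.3% of all genes tested, with 29.4% above 0 and 34.0% below. After the correction the 3 genes were at 0.19, 0.097 and -0.056. RGS16 (0.53, with ratios from 0.77-fold to 2.84-fold), RGS20 (0.36, -0.033 to 0.77) and RGS14 (0.34, -0.16 to 0.85) had intervals that included 0, as did RGS3 (-0.12, -0.54 to 0.29). RGS5 was at -0.42 (-0.99 to 0.13), and RGS2 (-0.34) and RGS4 (-0.50) did not pass the expression rule.

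For the peptide libraries set directly against Control, which share that library with LPS/Control, RGS16 was called higher after the wild-type peptide (2.88 on the log2 scale, 1.41 to 6.61), as were 3.28% of all genes tested. After the mutant peptide RGS16 was called higher (3.41, 2.01 to 7.14), with 5.13% of all genes, and RGS3 lower by 2.09-fold (1.64 to 2.69), with 2.96% of all genes. After the length and GC correction RGS3 was at -0.99 on the log2 scale, short of the 2-fold limit of -1. RGS12 stood at 0.23 (0.029 to 0.44) after the wild-type peptide and at -0.014 (-0.24 to 0.21) after the mutant. With the length and GC trends removed these became 0.20 and 0.14. The measured interval of RGS12 after the wild-type peptide included 0 with total-count scaling (0.10, -0.10 to 0.30) and with upper-quartile scaling (0.17, -0.033 to 0.37).

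Apart from RGS17, the rest of the RGS family was little expressed in these cells. Of 11 other family genes, 6 (RGS1, RGS6, RGS8, RGS13, RGS18 and RGS21) were at 0 in the 4 libraries, a limit taken as 3 counts in each. RGS17, the third RZ member, had 137 normalized counts in Control, 151 with LPS alone, 161 after the wild-type peptide and 110 after the mutant, and its mut PDZ+LPS/LPS value of -0.45 (-0.84 to -0.080) was -0.10 after the correction. RGS11, a partner of the G-beta 5 subunit, had 7, 8, 17 and 15 counts in the same order. Against LPS alone it was called higher after the wild-type peptide (1.09, -0.10 to 2.61) and after the mutant (1.13, -0.10 to 2.67), with intervals that included 0. Over all genes tested 1.37% and 3.95% were called in either direction in these comparisons. Against Control RGS11 was also called higher, at 1.36 and 1.39 in the same order, with intervals above 0 and 7 counts in Control. Of all genes tested 3.28% and 5.13% were called higher there. RGS11 passed the expression rule through the peptide libraries alone, as 1 of 2 genes of this list that passed in these comparisons. Both calls against LPS were lost with a pseudocount of 5, and the one after the mutant also after the length and GC correction (0.79). The calls against Control were not recomputed with other settings. Its exons overlap those of other genes on the opposite strand.

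The partners on which RGS proteins act were also listed with earlier results of these data known, so their calls describe these lists only. Over all genes tested 4.87% were called in either direction in LPS/Control. Of 16 G-alpha genes, 11 passed the expression rule and 0 were called in LPS/Control, with a median of 0.097. The one nearest to a call, GNAI1, a Gi subunit, had 1275 normalized counts in Control, 2357 with LPS alone, 2565 after the wild-type peptide and 2263 after the mutant. Its LPS/Control was 0.89 (0.79 to 0.98) and its WT PDZ+LPS/Control 1.01, a call just past the log2 limit of 1. Over all genes tested 3.28% were called higher in WT PDZ+LPS/Control. The call of GNAI1 was not recomputed with other scalings. All of them put the all-gene median of WT PDZ+LPS/Control below the 0.010 of geometric scaling (TMM -0.0049, upper-quartile -0.052, total-count -0.12). GNAI1 was named after its LPS/Control values were seen. Of 16 G-beta and G-gamma genes 1 of 9 that passed was called lower, GNB3, a G-beta subunit best known from the retina, at 117 normalized counts in Control and 47.0 in LPS (-1.30, -1.82 to -0.84). GNB3 had 95.2 normalized counts in mut PDZ+LPS and was called higher against LPS by 2.02-fold (1.41 to 2.94), a call that was lost with TMM scaling, with a pseudocount of 5 and after the correction (0.71 on the log2 scale). In LPS/Control 0 of 7 adenylyl cyclases and PLC-beta genes, 0 of 13 GRK and RGS-homology genes and 0 of 6 binding partners of RGS proteins were called.

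Receptors were read in LPS/Control from a list chosen with earlier results of these data known, so their calls describe this list only. Of 23 listed G-protein coupled receptors 15 passed the expression rule, and 3 were called higher and 0 lower, with a median of 0.40. Over all genes tested 3.46% were called higher and 1.41% lower, with a median of -0.0023. BDKRB1, the inducible bradykinin receptor, had 5 counts in Control and 178 in LPS (4.98, 4.02 to 6.91), and BDKRB2, the constitutive one, 112 and 1074 normalized counts (3.25, 2.99 to 3.53). PTGER4, a prostaglandin E2 receptor, had 87.0 and 185 normalized counts (1.08, 0.74 to 1.45), a call that was lost with total-count scaling. CXCR1 was at 0 in the 4 libraries, and CXCR2 had 0, 1, 1 and 2 counts in the libraries in the order used above, at which no fold is given.

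In WT PDZ+LPS/LPS 0 of 15 receptors were called, with a median of -0.0039, against 1.37% of all genes tested called in either direction. In mut PDZ+LPS/LPS 1 of 16 was called lower, P2RY2, a receptor for ATP and UTP, with 4 against 18 counts (-1.65, -3.87 to -0.25). Between the 2 peptides, mutant against wild type, P2RY2 was also called lower (-1.67, with 4 against 17 counts), and ADORA2A, an adenosine receptor, was called higher (1.45, 0.43 to 2.76) with 25 against 10 counts. Over all genes tested 3.95% and 4.26% were called in these 2 comparisons, in the same order. P2RY2 passed the expression rule only through LPS (16.9 normalized counts) or WT PDZ+LPS (17.2), against 4.70 with the mutant. ADORA2A passed it between the peptides only through mut PDZ+LPS (29.4 against 10.1).

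**Figure D4:**
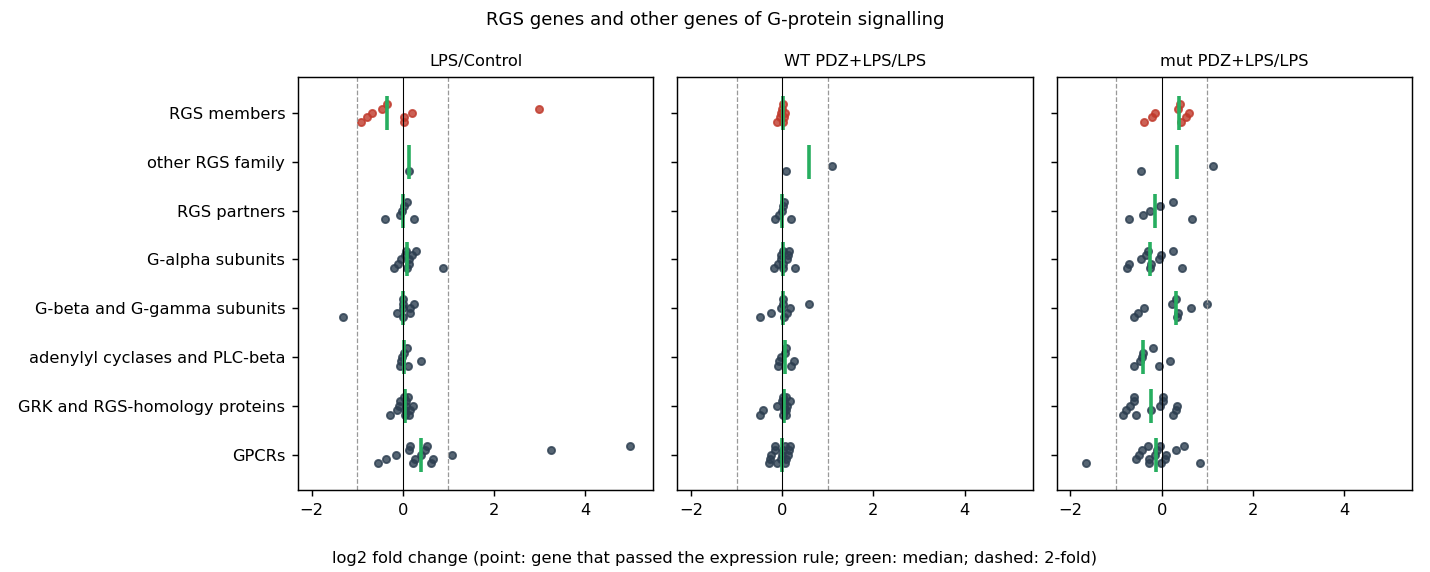
log2 fold change of the genes that passed the expression rule in 8 lists of G-protein signalling, with LPS/Control in the first panel and the wild-type and mutant peptide libraries against LPS in the other panels; each point is a gene (RGS members red), green bars are list medians and dashed lines 2-fold. RGS16, GNB3 and 3 receptors lie outside 2-fold in the first panel, and the panel of the wild-type peptide holds 1 such point, RGS11 at 1.09.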

How the data were processed

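RNA from BEAS-2B cells was sequenced after poly(A) selection with a stranded kit, 1 library for each of 4 conditions. The authors trimmed reads below a quality of 20, mapped them with TopHat (hg19 per the labels' processing notes) and deposited for each gene symbol its raw read count. The counting tool, annotation and use of strand are not given in the sources used here. The methods name FPKM and geometric normalization, but the deposited values are whole-number counts. Size factors came from DESeq2 1.42.0 (TMM: edgeR 4.0.16) in R 4.3.3, and all else from Python 3.11.15. log2 values used a pseudocount of 1. Calls needed 2-fold and 16 normalized counts in 1 of 2 libraries. The length and GC correction removed lowess trends (span 0.3) and was available for 12107 of the 13072 genes that averaged 16 or more. Read intervals cover counting error only, since reads carry no molecular identifiers. Scripts were tested on simulated data. The members and lists were chosen with earlier results of these data known. Genes named were the members, other RGS genes with 16 normalized counts, called genes of the pathway lists, CXCR1, CXCR2, the LPS genes and the 3 nearest profiles of RGS12 and RGS16. Of the 18 GRK and RGS-homology symbols 16 were found. One receptor first listed is not reported here. Promoters were read from RefSeq (GRCh38.p14), and none is shown for RGS20.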

Additional observations from a re-analysis of the deposited data

How the results depend on the processing

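Each count of called RGS genes was recomputed with other scalings (TMM, upper quartile, total count), with 5 as the pseudocount, without the expression rule or with one of 64 normalized counts, with fold limits of 1.5 and 3, and with the length and GC correction. In LPS/Control the genes called higher went from 1 to 0 under the rule of 64, because RGS16 has too few counts, and those called lower from 0 to 1 (RGS3) with total-count scaling and to 3 (RGS2, RGS3 and RGS14) at 1.5-fold. In WT PDZ+LPS/LPS the count called higher became 1 (RGS4) without an expression rule, and in mut PDZ+LPS/LPS it became 1 (RGS19) at 1.5-fold. The counts of mut PDZ+LPS/WT PDZ+LPS did not move under these alternatives. Total-count scaling put the all-gene median of LPS/Control at -0.13 on the log2 scale, against -0.0010 with geometric scaling. Of 40 log2 values (10 genes in 4 comparisons), all stayed inside their counting interval with each other scaling and with the pseudocount of 5, and 36 did so after the length and GC correction, the others being RGS10 and RGS19 in both comparisons of mut PDZ+LPS. The sign changed for 2 with total-count, 3 with upper-quartile scaling and 1 with the correction, 0 of them called genes. The largest shift was that of RGS16 in LPS/Control, 1.05 with a pseudocount of 5. Whether the interval excluded 0 depended on total-count or upper-quartile scaling for RGS12 in LPS/Control and both comparisons of mut PDZ+LPS, for RGS5 in LPS/Control (below 0 with total-count scaling) and for RGS20 in both comparisons of mut PDZ+LPS (above 0). In WT PDZ+LPS/Control it depended on total-count or upper-quartile scaling for RGS12 (included 0) and on total-count scaling for RGS5 (below 0). Among pathway genes in LPS/Control, TMM scaling added ADORA2A (0 against 17 counts) to the receptors called higher and total-count scaling removed PTGER4. RGS11, P2RY2 and ADORA2A were lost under the rule of 64. No paired analysis was possible because each condition has 1 library. No library could be left out for the same reason. Depth limits RGS2, RGS4 and RGS16, whose intervals in WT PDZ+LPS/LPS reach 2-fold.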

Other observations

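Genes whose levels ran closest to RGS12 and RGS16 were sought by the Euclidean distance between log2 profiles, each centred on its mean over the 4 libraries, among the 13071 other genes that averaged 16 or more normalized counts. RGS16 was nearest to NFKBIA, an inhibitor of NF-kB (distance 0.064, with 1471, 11594, 10599 and 14814 normalized counts for Control, LPS alone, the wild-type and the mutant peptide), then to MSC, a basic helix-loop-helix factor (0.084), and DUSP8, a MAP kinase phosphatase (0.12). Only 8 genes lay within 0.25 of RGS16, whose Control level rests on 2 counts. RGS12 was nearest to SRRM2, a splicing factor (0.013), CKAP4, a membrane protein (0.017), and ASXL1, a chromatin protein (0.023), and 2646 genes lay within 0.25 of it. With 4 libraries these distances describe the profiles, and they say nothing of shared control.

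The summed level of the 10 RGS genes was 1554 normalized counts in Control, 1395 with LPS alone, 1398 after the wild-type peptide and 1647 after the mutant. The sum after the mutant rests on RGS10 and RGS19, whose log2 fold changes against LPS went from 0.52 and 0.60 to 0.15 and 0.14 with the length and GC trends removed. In the same libraries the 23 receptors, listed with earlier results of these data known, summed to 7839, 11046, 11048 and 9366 normalized counts. For the 16 that passed the expression rule in mut PDZ+LPS/LPS, the median log2 fold change was -0.12. With the length and GC trends removed that median was 0.026.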
